A study of Mus musculus with 4 samples.

Results

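Secretoglobins are small secreted proteins that line the airways, and this account follows 4 of them, Scgb1a1, Scgb3a1, Scgb3a2 and Scgb1c1, with 3 further secretory genes, Bpifa1, Cbr2 and Retnla, in sorted mouse alveolar type II (AT2) cells. These 7 genes, of 17117 in the deposited UMI count table, were chosen by name because of their measured values in these same libraries, so their levels and ratios are a description and carry no test. They were read in alveolar cells, here cells in which Sftpc made up at least 2% of the cell's UMIs or Cldn4 had at least 1 UMI, with Ptprc, Pecam1 and Col1a2 at 0. This left 8129 of 10077 cells. Cells with a Ptprc UMI, which marks blood cells, served as the background, since they should lack airway secretory genes.

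Club cells of the conducting airways make most of the lung's secretoglobin, and SCGB1A1 is their main product. SCGB3A2 is made by club cells as well, and SCGB3A1 by secretory cells of the larger airways. BPIFA1, also called SPLUNC1, is a lipid-binding host-defence protein of upper airway fluid that also restrains the epithelial sodium channel. AT2 cells instead secrete surfactant, and CBR2, a mitochondrial carbonyl reductase of the mouse lung, is known from club cells and AT2 cells alike. RETNLA, also called RELM-alpha or FIZZ1, is a cysteine-rich secreted protein that interleukin-4 and interleukin-13 induce through STAT6.

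The libraries were made from GFP+ cells sorted out of enzyme-digested lungs with the 10x Genomics 3′ protocol, 1 library per group. All mice carried Sftpc-CreER and the Rosa26-mTmG reporter and received 4 doses of tamoxifen, so that Cre acts in cells that express Sftpc and turns on GFP there. Control mice were Cdc42flox/+ and Cdc42 AT2 null mice were Cdc42flox/-, that is, the controls carried a floxed allele too. The 4 groups were control sham (control mice with a sham treatment), control PNX (control mice on day 21 after pneumonectomy, removal of part of the lung), null sham and null PNX (null mice with the same 2 treatments). Each library is labelled postnatal day 80, without saying if surgery or collection took place then, and the sources used here do not give how many mice were pooled. Because each group is 1 library, every difference below is between libraries with no replicate check, and intervals (95%, exact) cover counting error only. Where 4 values follow each other without names, they run from the controls, sham then PNX, to the null mice, sham then PNX.

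Alveolar cells numbered 1669, 1972, 2630 and 1858. Their summed depth ranged from 8145379 to 20914459 UMIs, and cells were deepest in null PNX, at a median of 10595 UMIs against 4763 to 5129 elsewhere. All 7 AT2 markers were detected in the alveolar cells of every library, at a summed 103747 to 178813 UMIs per 1000000 (CPM). In null PNX, 424 of the alveolar cells had under 2% Sftpc and entered only through Cldn4, against 0, 1 and 19 in the other libraries. The libraries shared 54 cell barcodes, carried by 108 cells of which 81 were alveolar. Cdc42, the floxed gene, had 184, 226, 265 and 405 CPM in alveolar cells. The labels do not name the floxed exon and the protocol counts 3′ tags, so these values do not check the deletion.

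The members lie on 6 chromosomes of mm10 (GENCODE M21): Scgb1a1 on chromosome 19 (9083636 to 9087958, minus strand), Scgb3a1 on 11 (49663610 to 49665118, plus), Scgb3a2 on 18 (43764289 to 43767399, plus), Scgb1c1 on 7 (140845547 to 140846769, plus), Bpifa1 on 2 (154142880 to 154149219, plus), Cbr2 on 11 (120729489 to 120732114, minus) and Retnla on 16 (48842551 to 48844461, plus). All are annotated as protein-coding, and the values below count tags over the whole gene. RefSeq promoter entries (GRCm38.p6) matched 5 of the 7, without Scgb1a1 and Scgb3a2. Shown are the 250 bases before the RefSeq start for 2 pairs. Scgb1c1 and Cbr2 were spread widely over alveolar cells and were both lowest in null PNX, and Scgb3a1 and Bpifa1 had their highest counts in the same null PNX cell. Capitals mark matches to motif letters, read 5′ to 3′ on the gene's strand.
Scgb1c1, chr7:140845315-140845564, plus strand: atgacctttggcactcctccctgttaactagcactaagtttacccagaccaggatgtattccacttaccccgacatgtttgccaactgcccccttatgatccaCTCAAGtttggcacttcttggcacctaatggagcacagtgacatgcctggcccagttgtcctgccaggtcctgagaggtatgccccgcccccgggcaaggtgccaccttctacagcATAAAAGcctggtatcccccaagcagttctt
Cbr2, chr11:120732022-120732271, minus strand: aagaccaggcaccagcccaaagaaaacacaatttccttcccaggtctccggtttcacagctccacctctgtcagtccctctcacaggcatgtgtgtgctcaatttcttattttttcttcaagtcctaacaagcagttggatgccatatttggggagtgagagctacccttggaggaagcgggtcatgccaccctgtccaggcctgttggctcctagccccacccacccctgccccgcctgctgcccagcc
Scgb3a1, chr11:49663345-49663594, plus strand: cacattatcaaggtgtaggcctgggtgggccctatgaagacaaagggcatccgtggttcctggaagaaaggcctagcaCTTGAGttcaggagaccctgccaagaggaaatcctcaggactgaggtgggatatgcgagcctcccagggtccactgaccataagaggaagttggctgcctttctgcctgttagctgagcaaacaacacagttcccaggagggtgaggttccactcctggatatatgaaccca
Bpifa1, chr2:154142630-154142879, plus strand: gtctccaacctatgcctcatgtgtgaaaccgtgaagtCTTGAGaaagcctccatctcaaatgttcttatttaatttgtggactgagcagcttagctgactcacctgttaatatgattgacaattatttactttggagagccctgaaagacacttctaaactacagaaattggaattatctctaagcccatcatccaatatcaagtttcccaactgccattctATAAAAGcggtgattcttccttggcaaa

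CTCAAG, a core read by NKX2-1, the transcription factor of lung epithelium, was found on either strand in 4 of the 5 promoters, all but that of Cbr2. It starts 147 bases before the start of Scgb1c1, 193 before that of Retnla, and, as CTTGAG, 172 before that of Scgb3a1 and 213 before that of Bpifa1. The same letters occur in 13.3% of the 32817 RefSeq promoters of that length. The TATA-type run ATAAAAG, looked for after the sequences were seen, starts 31 bases before Scgb1c1, 28 before Bpifa1 and 29 before Retnla, against 4.83% of all promoters. The Retnla promoter also holds the C/EBP-type TTGCNNAA 134 bases before its start (9.57% of all) and the STAT6-type motif 145 bases before it (5.85%), without overlap. All motifs were read on both strands. The FOXA-type TGTTTAC (3.16% of all) matched none of the 5, and the Cbr2 promoter matched none of the 5 motifs. A match is a description of letters and not a binding site.

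The members fell into 3 patterns across cells. Cbr2 and Scgb1c1 were spread over many alveolar cells: the 10 highest cells held at most 12.05% of a library's UMIs of either gene. Scgb1a1 had at least 1 UMI in 84.1% to 99.8% of alveolar cells. On top of that, it made up at least 10% of all UMIs in a few cells of control sham and null PNX. This held in 1 cell of null sham and 0 of control PNX. Scgb3a1, Scgb3a2, Bpifa1 and Retnla had no UMI in most cells, and a handful of cells held most of their UMIs in null PNX and, for Retnla, in both control libraries as well. The 10 highest cells also held 53.5% of the Scgb3a2 UMIs in control sham. In the plot of ranked cells, the first 10 cells set the Scgb1a1 and Retnla curves apart, while the Cbr2 and Scgb1c1 curves of null PNX lie below the others.

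**Figure D1:**
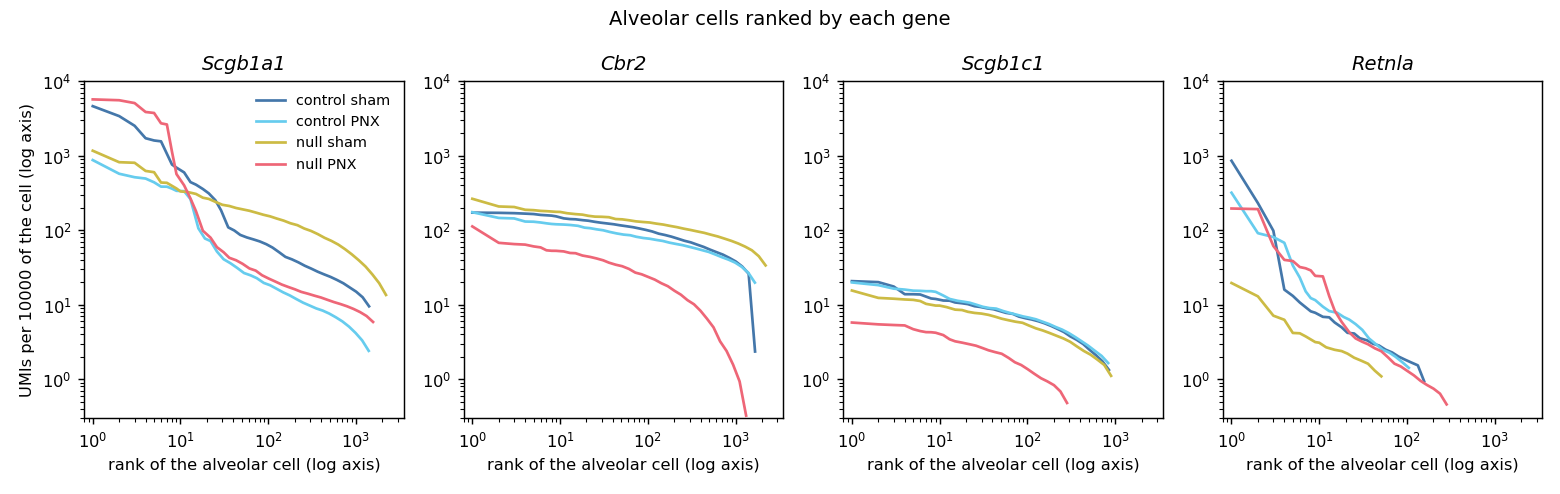
Alveolar cells of each library ranked by a gene's UMIs per 10000 of the cell's UMIs (both axes log, cells at 0 left out), for Scgb1a1, Cbr2, Scgb1c1 and Retnla. Scgb1a1 is far higher in the first cells of control sham and null PNX than in the cells after them, and the null PNX curves of Cbr2 and Scgb1c1 lie lowest.

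Scgb1a1, the club cell secretoglobin, had 5017 CPM (interval 4968 to 5066) in control mice after sham and 984 (964 to 1003) after PNX. In null mice it had 4695 (4660 to 4730) after sham and 5160 (5129 to 5191) after PNX. Control PNX was thus low, and the other libraries lay close together in their sums. Their cells did not resemble each other. The median alveolar cell had 17.3 and 4.19 Scgb1a1 UMIs per 10000 in the controls and 31.5 and 8.78 in the null mice, so null PNX, highest by its sum, was the next to lowest by its median cell. In null PNX the highest cell alone held 20.7% of the Scgb1a1 UMIs and the 10 highest held 79.7%. The 10 highest held 49.7% and 31.1% in the controls and 5.45% in null sham. Without them the levels were 2551 and 683 CPM in the controls and 4462 and 1060 in the null mice, an order that follows the medians.

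At least 10% of all UMIs were Scgb1a1 in 6, 0, 1 and 8 alveolar cells. The highest cell of null PNX had 22301 Scgb1a1 UMIs of 40360, or 55.3%, and the next 21991 of 38777. Of these 8 cells, 6 had under 1% Sftpc, 1 to 3 Cldn4 UMIs and 34 to 168 UMIs of Cyp2f2, a cytochrome P450 that marks club cells. Those 6 entered the alveolar class through Cldn4 alone. The 6 cells of control sham were of another make: Sftpc was 4.46% to 9.78% of their UMIs, Cldn4 was at 0, and Cyp2f2 had 2 to 47 UMIs. The highest of them had 6660 Scgb1a1 UMIs of 19680. Doublets were not called.

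Scgb3a1 had 8.59 CPM (70 UMIs) and 14.9 CPM (149) in the controls, and 0.688 CPM (10) and 113 CPM (2369) in the null mice. In the first 3 libraries no alveolar cell had more than 4 UMIs of it. In null PNX the highest cell held 1290 UMIs, 54.5% of the total, and the 10 highest held 85.6%. Without those 10 cells, 340 UMIs in 301 cells remained, 16.4 CPM (14.7 to 18.2), against 22.8 CPM (16.9 to 29.9) in the Ptprc-positive cells of that library. The Scgb3a1 level in alveolar cells of null PNX thus stood above the blood-cell level only through those few cells.

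Scgb3a2 had 26.4 CPM (215 UMIs) and 8.82 CPM (88) in the controls, and 9.64 CPM (140) and 191 CPM (3989) in the null mice. Control PNX and null sham could not be told apart within counting error. Null PNX again rested on few cells: the highest held 1114 UMIs of its 13094, the 10 highest held 93.2%, and without them 13.1 CPM (11.6 to 14.8) remained, against 11.6 (7.58 to 17.0) in Ptprc-positive cells. In control sham, 3 cells with 29 to 39 UMIs were above all others, and all 3 were among the 6 cells with at least 10% Scgb1a1.

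Bpifa1 was nearly confined to null PNX, with 2435 alveolar UMIs there (116 CPM) against 2 and 1 in the control libraries and 0 in null sham. For the 0 UMIs in 2630 null sham cells the exact upper limit is 0.254 CPM, and 3 counts would give 0.206 CPM. In null PNX, 2 cells held 91.4% of the UMIs, 1699 in the first and 527 in the next, with 0.495% and 0.278% Sftpc and 156 and 119 Cyp2f2 UMIs. No other alveolar cell had more than 5. Outside these 2 cells, 209 UMIs in 192 cells gave 10.0 CPM (8.71 to 11.5), and the Ptprc-positive cells of the same library had 11.2 CPM (7.22 to 16.5). The share of cells with a Bpifa1 UMI was also alike, 10.4% of alveolar cells and 8.39% of Ptprc-positive cells at median depths of 10595 and 5477 UMIs. The cell with 1699 Bpifa1 UMIs was also the highest for Scgb3a1, and it held 7492 UMIs of Scgb1a1 and 325 of Scgb3a2.

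The high cells of null PNX did not carry the same mixture. The 2 highest for Scgb1a1 had 375 and 310 Scgb3a1 UMIs and 735 and 508 of Scgb3a2, with 0 and 1 of Bpifa1. The next 2 had 1 and 2 UMIs of Scgb3a1 beside 240 and 165 of Scgb3a2. Of the 10 highest cells for Scgb1a1, 8 were among the 10 highest for Scgb3a2, 7 for Cbr2, 4 for Scgb3a1, 4 for Retnla and 2 for Bpifa1. Across alveolar cells of null PNX, Pearson's r of log values was 0.46 between Scgb1a1 and Scgb3a2, against 0.17 in control sham and at most 0.03 in the other libraries. It is given as a description over 1858 cells that share a library, with sparse counts.

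Most of the few-cell members sat in 39 alveolar cells of null PNX with at least 5 Cyp2f2 UMIs. These cells, 14 of them with under 2% Sftpc and 23 with Cldn4, held 91.7% of that library's alveolar Scgb3a2 UMIs, 91.5% of Bpifa1, 84.0% of Scgb3a1, 79.2% of Scgb1a1 and 70.0% of Retnla. They held only 13.5% of Cbr2 and 7.95% of Scgb1c1. The other libraries had 13, 10 and 12 such cells in the alveolar class. Outside it lay 18, 10, 19 and 13 cells with at least 5 Cyp2f2 UMIs, with 254226, 285949, 250594 and 16790 CPM of Scgb1a1. The Cyp2f2-positive cells richest in Scgb1a1 were thus inside the alveolar class in null PNX and outside it in control PNX and null sham, and on both sides in control sham, where the 13 inside had 168096 CPM.

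**Figure D2:**
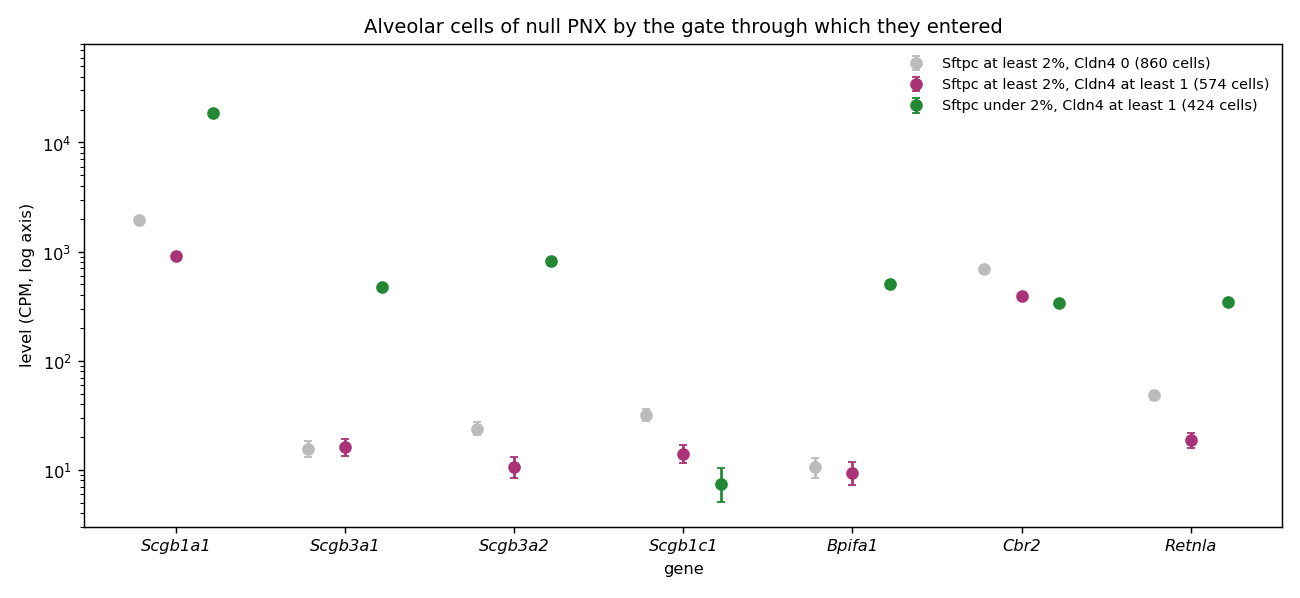
Summed CPM of the 7 genes (log axis, bars are exact 95% intervals of the counts) in null PNX, by whether cells entered with at least 2% Sftpc without Cldn4, with both, or through Cldn4 alone. The 5 genes with few high cells stand far higher in the 424 cells that entered through Cldn4 alone, and Cbr2 and Scgb1c1 are lowest there.

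Split by that gate, the 424 null PNX cells with Cldn4 and under 2% Sftpc had 18760 CPM of Scgb1a1, 470 of Scgb3a1, 825 of Scgb3a2, 506 of Bpifa1 and 348 of Retnla. The 860 cells with at least 2% Sftpc and no Cldn4 had 1931, 15.7, 23.8, 10.5 and 48.0 CPM, and the 574 with at least 2% Sftpc and Cldn4 had 918, 16.1, 10.6, 9.28 and 18.6. Among cells with at least 2% Sftpc, Cldn4-positive cells were lower in sum than Cldn4-negative cells for Scgb1a1 (ratio 0.475, 0.462 to 0.489), Scgb3a2 (0.443, 0.339 to 0.574) and Retnla (0.387, 0.318 to 0.468). Single cells carried part of this: 1 Cldn4-negative cell with 2.39% Sftpc held 5107 of the 16533 Scgb1a1 UMIs, and without each gate's highest cell Scgb1a1 was at 1338 CPM without and 900.04 with Cldn4, and Scgb3a2 at 16.6 and 10.2. Scgb3a1 (1.03, 0.803 to 1.32) and Bpifa1 (0.883, 0.639 to 1.22) had intervals that cover 1. The median cell had 8.40, 9.51 and 8.29 Scgb1a1 UMIs per 10000 in these 3 gates, so the typical Cldn4-positive cell was no higher in Scgb1a1 than the Cldn4-negative one. Cldn4 was used as a marker of the transitional state between AT2 and AT1 cells, but not every cell it admitted need be in that state. Of the 8 null PNX cells with at least 10% Scgb1a1, 6 entered through Cldn4 alone. They had 34 to 168 Cyp2f2 UMIs.

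Just outside the Sftpc threshold, the 7 control sham cells with 1.5% to 2% Sftpc had 361153 CPM of Scgb1a1, and just inside it the 2 cells with 2% to 2.5% had 964. In null PNX the 17 cells just outside had 1250 CPM and the 18 just inside 35784. Both libraries thus had Scgb1a1-rich cells close to this edge.

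**Figure D3:**
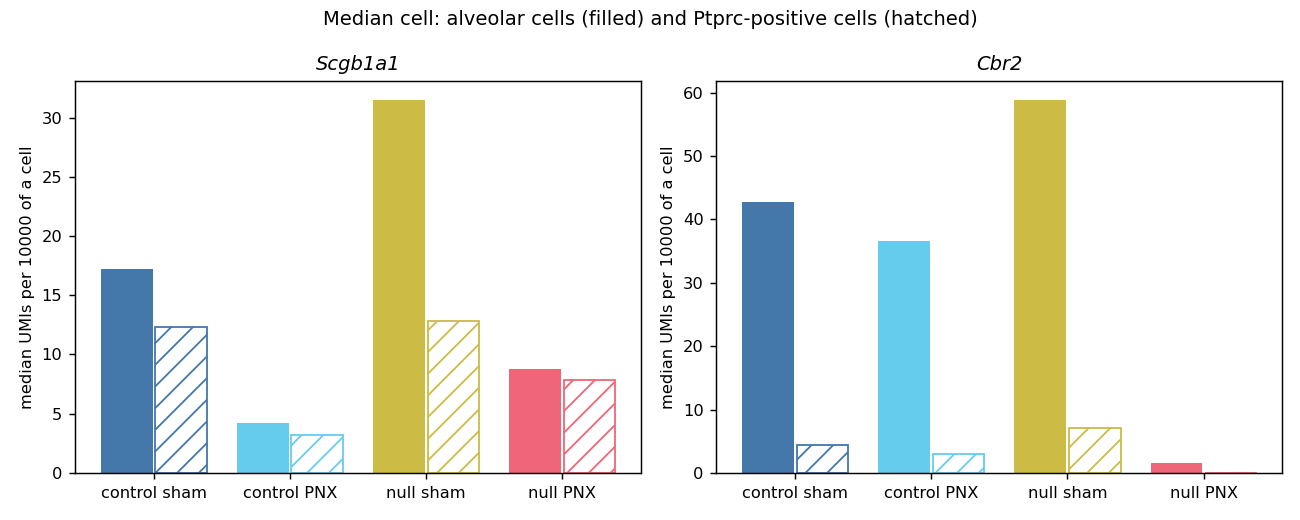
Median UMIs per 10000 of a cell in alveolar cells (filled bars) and Ptprc-positive cells (hatched bars) of each library, for Scgb1a1 and Cbr2. Scgb1a1 in the median Ptprc-positive cell follows the alveolar cells across libraries, from 3.19 in control PNX to 12.8 in null sham, and Cbr2 is far higher in alveolar cells except in null PNX, where both medians are low (1.60 and 0).

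Ptprc-positive cells had Scgb1a1 in every library, at 1678 and 353 CPM in the controls and 1763 and 1820 CPM in the null mice. In null PNX 1 of the 286 cells held 2049 of their 4078 Scgb1a1 UMIs. Alveolar cells exceeded the Ptprc-positive cells by 2.99, 2.79, 2.66 and 2.84 times. With the background limited to cells with at least 2 Ptprc UMIs and under 2% Sftpc, the factor for Scgb1a1 was 4.17, 3.53, 3.92 and 6.01. Scgb1a1 was seen in 94.3%, 70.0%, 97.1% and 97.9% of Ptprc-positive cells, against 99.1%, 84.1%, 99.8% and 99.4% of alveolar cells. Thinned to 2000 UMIs per cell, the shares were 89.5%, 45.3%, 89.5% and 75.9% against 95.7%, 60.4%, 97.9% and 83.0%. The deepest library, null PNX, thus lay between the control libraries once depth was equal. The thinning left out 113, 101, 139 and 0 alveolar cells and 48, 14, 35 and 0 Ptprc-positive cells.

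In null PNX the median Scgb1a1 level differed little between cell classes: 7.86 per 10000 in Ptprc-positive, 7.93 in Pecam1-positive, 7.01 in Col1a2-positive and 8.78 in alveolar cells. In null sham it was 12.8, 16.2 and 11.9 in the first 3 and 31.5 in alveolar cells. There, 288 alveolar cells had at least 1% Scgb1a1, against 40 and 16 in the controls and 17 in null PNX, and only 1 of the 288 reached 10%. Null sham alveolar cells therefore had a broad upper range that the other libraries lacked. Scgb1a1 correlated with Sftpc across null sham alveolar cells at r = 0.31, against 0.09 and 0.12 in the controls and 0.07 in null PNX, a description of cells that share a library.

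For the rarer members the background matched the alveolar level in some libraries. Scgb3a1 in alveolar cells was 0.743 (0.391 to 1.56), 0.918 (0.486 to 1.95) and 1.06 (0.150 to 45.9) times that of Ptprc-positive cells in the first 3 libraries. The difference of Scgb3a1 between those libraries was also present in the Ptprc-positive cells, which had 11.6, 16.3 and 0.651 CPM. Scgb3a1 values outside null PNX are thus at background and are not read as expression in alveolar cells. Scgb3a2 stood at 1.93, 1.36 and 1.64 times the background there, with intervals that cover 1 in control PNX (0.511 to 5.09) and null sham (0.842 to 3.67). The part of this background in the alveolar values was not tested.

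Cbr2, the carbonyl reductase, had 4935 CPM (4887 to 4984) and 3887 CPM (3849 to 3926) in the controls, and 6100 CPM (6060 to 6141) and 503 CPM (493 to 513) in the null mice. All but null PNX were high. The median alveolar cell had 42.7, 36.6, 58.9 and 1.60 Cbr2 UMIs per 10000, and the highest cell held 0.341%, 0.240%, 0.195% and 1.502% of the UMIs. A Cbr2 UMI was present in 100%, 99.6%, 99.96% and 71.2% of alveolar cells, and at 2000 UMIs per cell in 99.7%, 98.7%, 99.8% and 39.1%. The lower level in null PNX was thus a shift of most cells and not the loss of a few high ones. Only 356 null PNX cells, 19.2%, had 10 or more Cbr2 UMIs, against 79.4% to 92.4% in the other libraries.

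Within null PNX, Cbr2 was at 689 CPM in the 860 Cldn4-negative cells, 395 in the 574 Cldn4-positive cells with at least 2% Sftpc and 338 in the 424 with less. All 3 gates lay below every other library. Cbr2 in Ptprc-positive cells was 1483, 706, 2256 and 254 CPM, the same order as in alveolar cells. With the stricter background it was 341, 226, 683 and 53.8 CPM, and alveolar cells exceeded it by 14.5, 17.2, 8.93 and 9.35 times. The genes most like Cbr2 across alveolar cells by mean r over the libraries were Sftpc (0.24), Sftpa1, Lyz2, Wfdc2 and Dcxr (0.20).

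The other carbonyl reductases of the table did not follow Cbr2. Cbr1 had 46.0, 46.1, 41.6 and 101 CPM, Cbr3 had 5.03, 4.91, 17.8 and 42.3 CPM, and Cbr4 had 7.24, 6.61, 7.43 and 15.2 CPM. Each was highest in the library in which Cbr2 was lowest. In null PNX over null sham the ratio was 2.43 (2.22 to 2.66) for Cbr1 and 2.38 (2.07 to 2.75) for Cbr3, against 0.0825 for Cbr2.

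Scgb1c1, a secretoglobin known from the olfactory mucosa, had 196 CPM (1593 UMIs) and 181 CPM (1807) in the controls, and 102 CPM (1479) and 19.8 CPM (415) in the null mice. Both controls were high, null sham stood between, and null PNX was low. It was seen in 53.6%, 49.9%, 36.4% and 16.1% of alveolar cells, and at 2000 UMIs per cell in 30.5%, 27.3%, 17.9% and 3.98%. Ptprc-positive cells had 52.6, 34.1, 39.7 and 5.80 CPM, and alveolar cells exceeded them by 3.72, 5.30, 2.56 and 3.42 times. The stricter background had 20.4, 6.96, 1.67 and 0 CPM, from 9, 2, 1 and 0 UMIs. No cell exceeded 16 UMIs, and that cell was one of the null PNX cells rich in Scgb1a1. Within null PNX it was at 31.8 CPM without Cldn4 and at 14.0 and 7.36 CPM in the gates with Cldn4 above and below 2% Sftpc. Null sham showed the same order, with 104 CPM in 2561 Cldn4-negative cells and 49.6 in 69 Cldn4-positive cells (ratio 0.478, 0.316 to 0.693). The genes most like it were Sftpc (mean r 0.20), Fabp5, Lyz2, Cxcl15 and Scp2, and none of them was a secretoglobin.

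Retnla, the alternative-activation protein, had 144 CPM (1173 UMIs) and 49.8 CPM (497) in the controls, and 5.71 CPM (83) and 101 CPM (2119) in the null mice. Its values depended on single cells in every library. The highest cell had 749, 180, 13 and 786 UMIs, which was 63.9%, 36.2%, 15.7% and 37.1% of the total. Without it the levels were 52.1, 31.8, 4.82 and 63.9 CPM, and without the 10 highest cells 20.9, 17.0, 3.46 and 21.8 CPM. Null sham was low in each version, and its Ptprc-positive cells had 12.4 CPM, 16 of their 19 UMIs in 1 cell. The highest control cells had 13.7% and 7.39% Sftpc and at most 1 Cyp2f2 UMI, so they were not the Scgb1a1-rich cells. In null PNX the first 2 had 0.719% and 0.649% Sftpc and 113 and 61 Cyp2f2 UMIs, and both were among the 8 rich in Scgb1a1.

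Blood-cell markers in alveolar cells did not follow the order of Retnla. The 6 macrophage markers summed to 18.5, 14.3, 52.4 and 95.3 CPM, of which Plet1 made up 8.59, 7.62, 34.6 and 72.7. Mrc1 and Marco, which define lung macrophages, were at most 1.24 CPM, and Adgre1 was at 0 in control PNX. The 4 neutrophil markers, one of them the Retnla paralog Retnlg, summed to 97.2, 47.2, 148 and 109 CPM. Their part in the Retnla values was not tested. Retnlg itself had 11.2, 7.52, 21.0 and 22.4 CPM, and Retn and Retnlb had at most 3 UMIs in any library.

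Of Bpifb5 and Bpifb1, relatives of Bpifa1, only Bpifb5 differed from it in the library with the highest level. Bpifb5 had 22.8, 15.1, 6.75 and 0.717 CPM in the same order of libraries and was lowest where Bpifa1 was highest. Bpifb1, a secreted protein of airway goblet and mucous cells, had 2, 6, 10 and 155 UMIs. It was highest in null PNX like Bpifa1, at 7.41 CPM.

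**Figure D4:**
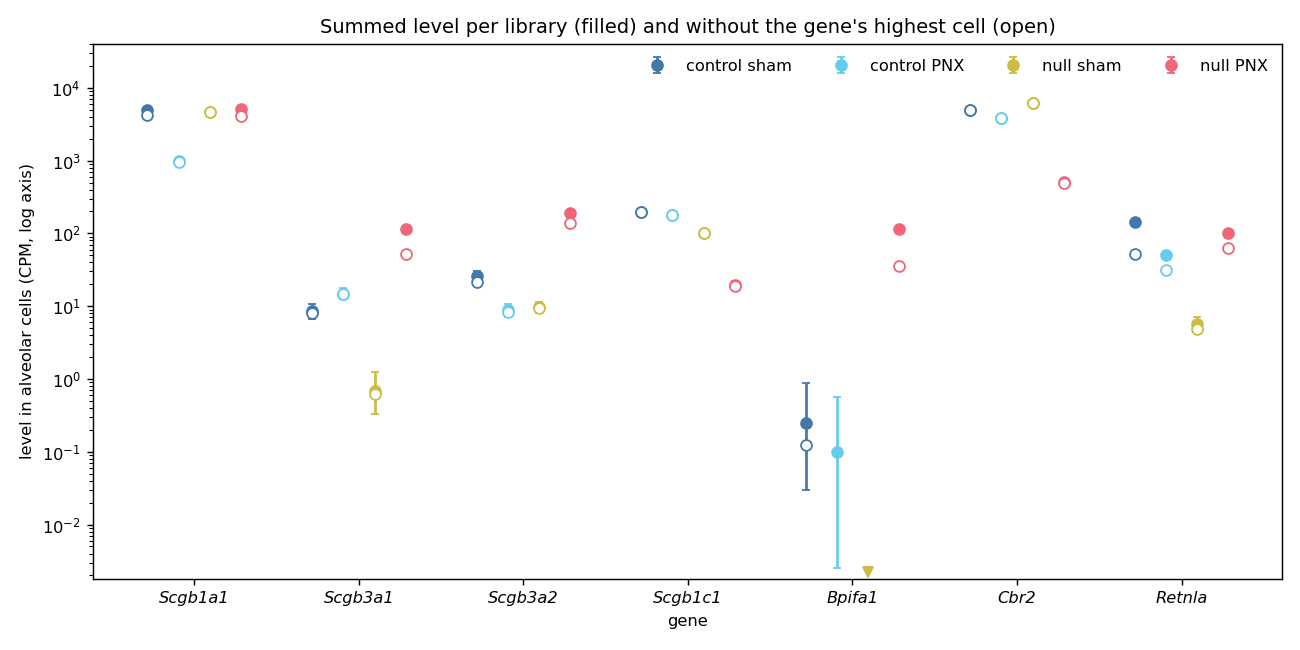
Summed CPM of each gene in alveolar cells of each library (log axis). Filled points are all alveolar cells with exact 95% intervals, open points leave out the gene's highest cell of that library, and the triangle marks Bpifa1 at 0 UMIs in null sham. Open and filled points coincide for Cbr2 and Scgb1c1 and part for Retnla, and for Scgb3a1 and Bpifa1 in null PNX.

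Ratios of one library to another were read against all genes with a mean CPM of 10 or more across libraries and more than 3 UMIs in one of the 2 compared. A gene counted as higher or lower when its ratio, divided by the median ratio of all tested genes, reached 1.5-fold. That median was 1.10 for surgery in control mice, 1.13 for genotype after sham, 1.17 for surgery in null mice and 1.18 for genotype after PNX. The comparisons share libraries, so their values are given side by side only. The ratios themselves are printed without the division.

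For pneumonectomy in control mice, 1 of the 6 members tested was higher and 3 were lower in control PNX, and 3.53% of 7059 genes were higher and 3.1% lower. The lower members were Scgb1a1 at a ratio of 0.196 (0.192 to 0.2004), Scgb3a2 at 0.334 (0.258 to 0.430) and Retnla at 0.346 (0.311 to 0.384). Scgb3a1 was higher at 1.74 (1.30 to 2.34), at background in both libraries. It passed the filter on low values only through null PNX. The Scgb3a2 level of control PNX was 1.36 times its background, with an interval (0.511 to 5.09) that covers 1. Among the 142 tested genes with a mean of at least 1000 CPM, Scgb1a1 had the lowest ratio. Cells outside the alveolar class without a Ptprc, Pecam1 or Col1a2 UMI held 45652 Scgb1a1 UMIs in control sham. In control PNX they held 35194, so the gate bears on this ratio. Without each library's highest cell the ratio was 0.224 for Scgb1a1 and 0.610 for Retnla. Leaving out the 10 highest cells moved Retnla inside the 1.5-fold limits. Cbr2 (0.788) and Scgb1c1 (0.926) stayed inside them. Scgb1a1 in Ptprc-positive cells was 353 against 1678 CPM, lower in control PNX there as well.

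For the genotype after sham, 0 members were higher and 4 of 6 were lower in null sham than in control sham, against 7.86% and 6.73% of 7059 genes. Retnla had a ratio of 0.0397 (0.0314 to 0.0496), or 0.0925 without each library's highest cell, and the lowest value of all tested genes. This holds within the alveolar class only. Cells outside it without a Ptprc, Pecam1 or Col1a2 UMI held 144 Retnla UMIs in null sham, 119 of them in the highest cell. In control sham such cells held 67, with 63 in the highest cell. Scgb3a1 had 0.0801, Scgb3a2 0.365 and Scgb1c1 0.521 (0.485 to 0.559). Scgb3a1 was at background in both libraries and passed the filter on low values only through null PNX. Nothing is read from its place in this count. The Scgb3a2 level of null sham was 1.64 times its background, with an interval (0.842 to 3.67) that covers 1. Scgb1a1 (0.936) and Cbr2 (1.24) were inside the limits, although their median cells were higher in null sham. The Scgb1a1 value turned with the gate: on the log2 scale relative to all genes it was 0.78, higher in null sham, without cells with 2 or more Cyp2f2 UMIs, and -1.32, lower, with Sftpc at least 1%. Scgb3a2 was inside the limits at -0.57 without the Cyp2f2 cells.

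For pneumonectomy in null mice, 4 of 7 members were higher and 2 lower in null PNX than in null sham, against 16.1% and 20.1% of 7060 genes. Bpifa1 and Scgb3a1 passed the filter on low values only through null PNX, where they are high, so their place among the higher members follows from the filter and nothing is read from that count. Bpifa1 was 564-fold higher when 3 counts were set in place of its 0 UMIs in null sham. Scgb3a1 was 165-fold higher (89.3 to 344), Scgb3a2 19.8-fold (16.7 to 23.6) and Retnla 17.7-fold (14.2 to 22.4). Cells outside the alveolar class without a Ptprc, Pecam1 or Col1a2 UMI held 42246 Scgb1a1, 853 Scgb3a2 and 144 Retnla UMIs in null sham. In null PNX they held 2280, 23 and 58. For Scgb3a1 these counts were 1 and 15, and for Bpifa1 0 and 5. The 2 lower members were those spread over many cells. Cbr2 was 12.1-fold lower (ratio 0.0825) and Scgb1c1 5.13-fold lower (0.195, 0.174 to 0.217). Cbr2 had the lowest ratio of the 142 genes with a mean of at least 1000 CPM. Scgb1a1 had a ratio of 1.10 but was at -2.31 on the log2 scale relative to all genes without the 10 highest cells of each library. With those 10 cells left out, Scgb3a2 was inside the limits at 0.44.

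For the genotype after pneumonectomy, 5 of 7 members were higher and 2 lower in null PNX than in control PNX, against 20.8% and 21.5% of 7060 genes. The same holds here for Bpifa1 and Scgb3a1, and nothing is read from the count of higher members. Within the alveolar class, Scgb1a1 was 5.25-fold higher (5.14 to 5.36), Scgb3a1 7.58-fold (6.43 to 9.01), Scgb3a2 21.6-fold (17.5 to 27.0) and Retnla 2.03-fold (1.84 to 2.25). Bpifa1 had 2435 UMIs against 1, a ratio of 1162 (208 to 45901). Cbr2 was 7.73-fold lower and Scgb1c1 9.13-fold lower. The gate limits these ratios. Cells outside the alveolar class without a Ptprc, Pecam1 or Col1a2 UMI held 35194 Scgb1a1, 2627 Scgb3a1 and 1730 Scgb3a2 UMIs in control PNX. In null PNX they held 2280, 15 and 23. For Bpifa1 these counts were 28 and 5, and for Retnla 3 and 58. The higher values are thus not read as differences over all sorted cells. Without the 10 highest cells of each library only Bpifa1 still counted as higher, and Cbr2 and Scgb1c1 still counted as lower. Bpifa1 then had 9.16 CPM in null PNX, against 11.2 in the Ptprc-positive cells of that library. It had 0 CPM in the other libraries, so its mean was below 10 CPM. The filter on low values was not applied again for this count.

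**Figure D5:**
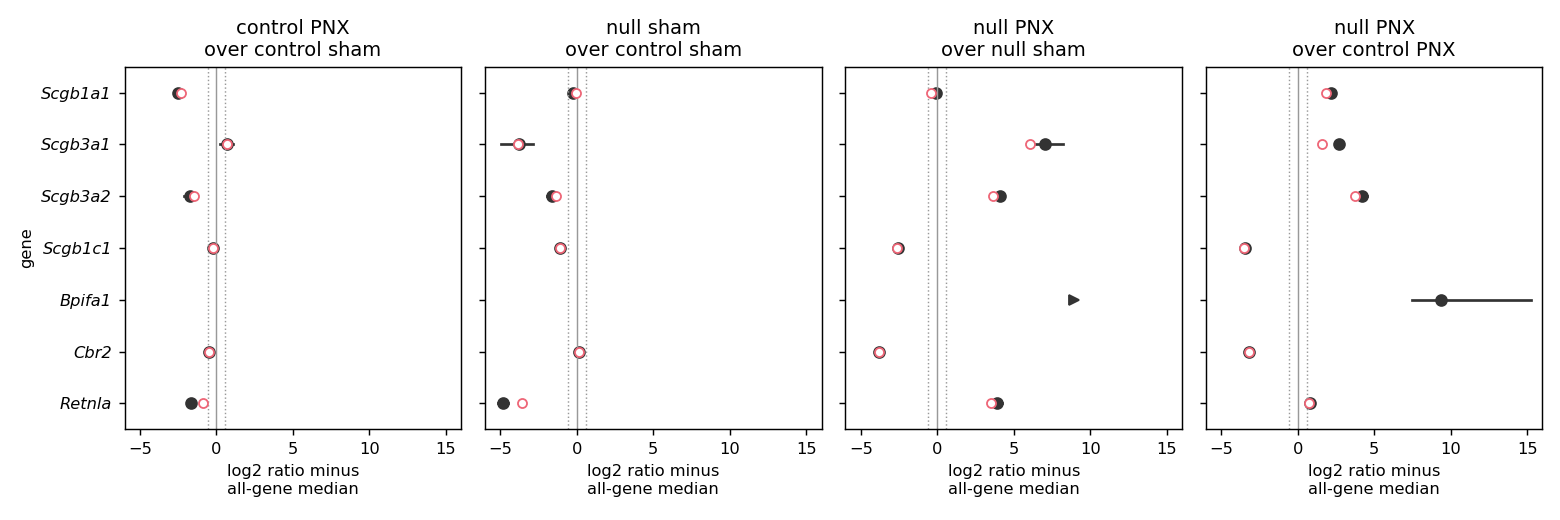
Log2 ratio of summed CPM of each gene in the 4 comparisons, minus the median over all tested genes (solid line at 0, dotted lines at 1.5-fold). Black points with exact 95% intervals use all alveolar cells, red open points leave out the highest cell, and the triangle is the lower bound for Bpifa1. Cbr2 and Scgb1c1 lie far left in both null PNX comparisons, and Scgb3a1, Scgb3a2 and Bpifa1 far right.

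Other airway secretory genes followed the secretoglobins only in part. Of a list of 31 airway secretory genes without the members, 30 were in the table and 10 passed the filter on low values. In control PNX over control sham 1 was higher and 6 were lower, against 3.53% and 3.1% of all tested genes. Scgb1a1 and Scgb3a2 were lower there as well. The median was -0.87 on the log2 scale relative to all genes, whose own median is 0 by construction. Cyp2f2 (0.663), Aldh1a1, a retinal dehydrogenase (0.249), Gsta3, a glutathione transferase (0.521), and Pon1, a paraoxonase (0.426), were among the lower genes. In null sham over control sham 3 were higher and 5 lower (median -0.54), against 7.86% and 6.73% of all tested genes. In null PNX over null sham 2 were higher and 6 lower (median -0.81), against 16.1% and 20.1%. In null PNX over control PNX 2 were higher and 5 lower (median -0.56), against 20.8% and 21.5%. Aldh1a1 had 7.24, 1.80, 15.6 and 16.9 CPM and passed the filter on low values only through the null libraries. It was among the 3 higher in null sham over control sham, and nothing is read from its place in these counts. Cyp2f2 counted as higher in null PNX over null sham (ratio 1.86), and did not without the highest cell of each library (1.74). Cyp2b10, a cytochrome P450 of club cells, had 15.3, 32.9, 57.7 and 3.35 CPM, lowest in null PNX like Cbr2. The 7 club markers, 6 or 7 of them detected, summed to 137, 81.4, 100.1 and 129 CPM, with Chad at 0 in both sham libraries.

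Transcription factors of airway secretory genes mostly stayed inside the limits, except in null PNX over control PNX, where 5 of 8 were lower. Of 8 tested airway regulators, 0 were higher in any of the 4 comparisons, and 0, 1, 1 and 5 were lower in the order above. Of all tested genes, 3.53%, 7.86%, 16.1% and 20.8% were higher and 3.1%, 6.73%, 20.1% and 21.5% lower. Nkx2-1 had 298, 315, 294 and 269 CPM and stayed inside the limits in all 4 comparisons. Cebpa, a factor of surfactant and club genes, was the lower one in null PNX over null sham at 0.523 (0.503 to 0.543). In null PNX over control PNX, Foxa1 (0.544), Foxa2 (0.617) and Cebpa (0.734) were among the 5 lower.

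Of the interleukin-4 and STAT6 genes that bear on Retnla, 3 of 7 passed the filter. Il4ra, the shared receptor chain, was 4.29-fold (3.73 to 4.96) and Il13ra1 2.98-fold (2.48 to 3.60) higher in null PNX over null sham, and Stat6 was lower at 0.589 (0.519 to 0.669). Il4ra and Il13ra1 were inside the limits in control PNX over control sham, where Retnla was lower. In null sham over control sham 0 of the 3 were higher and 1 was lower, against 7.86% and 6.73% of all tested genes. In null PNX over control PNX 2 were higher and 1 lower, against 20.8% and 21.5%. The part of these genes in the Retnla values was not tested. Surfactant genes, measured in the same cells, lay closer to 1 than Cbr2 and Scgb1c1. In null PNX over null sham, Sftpc was at 0.890, Sftpb at 1.01, Sftpd at 1.14 and Sftpa1, the lower one of the 4, at 0.711.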

How the data were processed

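Single-cell 3′ libraries of 4 groups of sorted mouse AT2 cells, 1 library each, were read from 1 table of raw UMI counts per gene and cell, as deposited by the authors. The counts are not normalized. Per the submitters' processing notes, Cell Ranger 2.1.0, Seurat 2.3.4 and mm10 were used. The sources used here do not give the annotation or how cells and doublets were filtered. Each cell's library was taken from its barcode ending, as the labels state. No cell filter and no doublet caller was applied. Cells were gated as described above, UMIs were summed over the alveolar cells of each library and scaled to CPM, and intervals are exact Poisson (levels) or exact Clopper-Pearson binomial (shares, ratios) at 95%, for counting error only. No test was run, since a group is 1 library. A count of 0.5 was added for log2 ratios only. The floor of 3 counts lies at 0.368, 0.301, 0.206 and 0.143 CPM (controls, sham then PNX, and null mice, sham then PNX). Likeness is Pearson's r across alveolar cells of log(1 + UMIs per 10000), averaged over the libraries, among genes seen in at least 1% of cells. The genes named are the 7 members, their paralogs, the fixed lists and the 5 most alike genes of a member. Members and lists were chosen with earlier results of these data known. The calling script was tested on simulated counts. Python 3.11.15, numpy 2.4.6, scipy 1.17.1 and pandas 2.3.3 were used. Alternatives covered the highest cells, the Sftpc and Cldn4 gates, cell quality, Cyp2f2-positive cells, the CPM filter, the fold and the centring.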

Additional observations from a re-analysis of the deposited data

Results flagged for a closer look

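The surgery ratio of 2 members pointed in opposite directions in the 2 genotypes. Scgb3a2 was at 4.08 on the log2 scale relative to all genes in null PNX over null sham and at -1.71 in control PNX over control sham. Retnla was at 3.92 and -1.67. The difference between the genotypes was not tested, since each group is 1 library, and both null PNX values rest on few cells, as described above. The control values do so in part. In control sham 1 cell held 63.9% of the Retnla UMIs, and the 10 highest held 53.5% of those of Scgb3a2. Cells outside the alveolar class without a Ptprc, Pecam1 or Col1a2 UMI held 1343 Scgb3a2 UMIs in control sham and 1730 in control PNX, so the gate bears on that ratio.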

How the results depend on the processing

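Over 11 alternatives, 260 of 286 member ratios kept their call, 26 took another and 6 reversed. The number of members counted as higher or lower changed by over 1.5 times only in null PNX over control PNX, from 7 to 3 without the 10 highest cells of each gene and to 4 without cells with 2 or more Cyp2f2 UMIs. These counts keep members that fall below the CPM filter under an alternative. The reversed values, on the log2 scale relative to all genes, were as follows. Scgb3a1 in control PNX over control sham was at -2.49 with Sftpc at least 1%. In null PNX over control PNX, Scgb3a1 was at -0.11 with Sftpc at least 2% and Cldn4 at 0, and at -0.12 with any Cldn4, a gate added after seeing the data. Retnla there was at -0.24 and -0.76 under the same gates, and at -1.06 without cells with 2 or more Cyp2f2 UMIs. The cause was not tested. Leaving out the highest cell, a quality filter of 500 genes and 20% mitochondrial UMIs, Sftpc at least 5%, no filter on CPM and no centring changed no call of a member. No paired analysis was possible because each group is 1 library. Bpifa1 outside null PNX rests on at most 2 alveolar UMIs per library, with 0 in the Ptprc-positive cells, so its level there is limited by counts.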
